A study of Mus musculus with 17 samples.

Results

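The sites described here are RUNX1 peaks at the ends of genes that were called without the fusion protein CBFB-MYH11 and were not called in cells with it. Peaks of the 8 RUNX1 libraries that overlapped by at least 1 bp were merged, which gave 21664 sites. A site was taken when it was called in all 6 libraries of cells not making the fusion, in neither of the 2 libraries of cells making it, and within 1 kb of either boundary of a protein-coding gene on the mm10 genome. This left 365 sites, of 2604 gene-end sites called in all 6 libraries and 8531 such sites anywhere. They are called lost below. The word stands for the absence of a peak call and for no measured amount of binding. Because the sites were chosen by their RUNX1 peak calls in these 8 libraries, every RUNX1 value at them is a description and was given no test.

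The study mapped RUNX1 and the chromatin remodeller CHD7 by chromatin immunoprecipitation and sequencing in the mouse line 416B, which grows as myeloid progenitors. Cells with the construct labelled CBFB-MYH11 carried the type A cDNA of the fusion (CM), joined through an F2A element to the fluorescent protein mCherry, behind a tetracycline-responsive element. Cells labelled Control-ATG carried the plasmid without CM, and both kinds of cells also carried the tetracycline silencer, the transactivator and blasticidin resistance. Each construct was sampled without doxycycline (-Dox) and after 1 µg/ml doxycycline for 24 h (+Dox), with 2 libraries per condition and antibody, so that only CBFB-MYH11 +Dox was induced to make CM. Clones were grown from single sorted cells, so a difference between clones and a difference between constructs cannot be told apart in a comparison of CBFB-MYH11 with control cells. A peak that fades in all cells and one that disappears from some cells cannot be told apart either.

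RUNX1 binds DNA as a complex with CBFB, which has no DNA contact of its own and strengthens the grip of RUNX1, and the pair drives blood stem cell emergence, megakaryocyte maturation and myeloid differentiation. In the inversion of chromosome 16 that drives some acute myeloid leukaemias, CBFB is fused to the tail of the smooth muscle myosin heavy chain encoded by MYH11, and the fusion still binds RUNX1. CHD7 is an ATP-dependent remodeller of the chromodomain helicase family that is found at enhancers and promoters. Gene starts are where promoters lie, and they differ from distal enhancers in base composition and in the factors that occupy them.

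A library from the RUNX1 series, labelled Control -Dox replicate 1, has peak names that carry a +Dox tag. The RUNX1 lists labelled Control +Dox replicate 2 and CBFB-MYH11 +Dox replicate 2 carry no such tag, and no CHD7 list does. The labels were used throughout. Neither control condition contains CM, and without Control -Dox replicate 1 379 sites met the rule and 14.4% of gene-end sites were lost. The RUNX1 lists held 8140 to 16163 peaks, the CBFB-MYH11 +Dox lists being the shortest with 8140 and 9710, and the CHD7 lists held 16323 to 37698. With every RUNX1 list limited to its 8140 highest peaks 101 sites met the rule, and without CBFB-MYH11 +Dox replicate 2 586 did. Read depth is unknown. Peak strength is given as its percentile rank, the place of the authors' −log10 p score among all peaks of the same list, with 100 the highest.

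The promoters of 7 lost sites are shown first, because they place the sites against gene starts and against the letters that RUNX1 prefers. Each line holds the 250 bases before the gene start on the gene's own strand, from RefSeq on GRCm38.p6 (mm10), and capitals mark TGTGGT or TGCGGT on either strand, so that ACCACA and ACCGCA are the same letters read from the other strand. Cpa3 (chr3:20242182-20242431, minus strand) encodes the mast cell carboxypeptidase A3. Gp1ba (chr11:70638872-70639121, plus strand) encodes the platelet receptor chain that binds von Willebrand factor. Fermt3 (chr19:7019470-7019719, minus strand) encodes kindlin-3, which activates integrins in blood cells. Batf (chr12:85686470-85686719, plus strand) encodes a basic leucine zipper factor of lymphoid and myeloid cells. Rabl2 (chr15:89591924-89592173, minus strand) encodes a small GTPase. Dus1l (chr11:120796396-120796645, minus strand) encodes a tRNA dihydrouridine synthase. Chd8 (chr14:52257761-52258010, minus strand) encodes a remodeller of the same family as CHD7. Batf and Rabl2 were chosen after their values were seen, for holding 2 matches each. The 7 do not stand for all lost sites in this. Either form was in 38.5% of the 231 RefSeq promoters under lost sites, which reach 50 bases past the gene start. Of the 365 lost sites, 174 overlapped no such promoter.
Cpa3: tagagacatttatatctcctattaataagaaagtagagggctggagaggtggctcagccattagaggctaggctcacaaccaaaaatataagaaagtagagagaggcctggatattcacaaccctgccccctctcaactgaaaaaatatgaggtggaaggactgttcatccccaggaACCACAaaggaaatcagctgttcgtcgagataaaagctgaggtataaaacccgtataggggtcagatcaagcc
Gp1ba: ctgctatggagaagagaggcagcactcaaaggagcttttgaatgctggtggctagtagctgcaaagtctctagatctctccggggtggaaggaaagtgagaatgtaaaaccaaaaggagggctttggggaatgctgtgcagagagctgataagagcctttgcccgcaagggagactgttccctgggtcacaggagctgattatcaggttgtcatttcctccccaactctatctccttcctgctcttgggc
Fermt3: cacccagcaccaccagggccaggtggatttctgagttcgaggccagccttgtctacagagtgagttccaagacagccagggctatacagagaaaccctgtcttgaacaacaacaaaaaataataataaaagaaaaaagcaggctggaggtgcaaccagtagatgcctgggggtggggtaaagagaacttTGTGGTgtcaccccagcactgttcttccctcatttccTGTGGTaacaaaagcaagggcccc
Batf: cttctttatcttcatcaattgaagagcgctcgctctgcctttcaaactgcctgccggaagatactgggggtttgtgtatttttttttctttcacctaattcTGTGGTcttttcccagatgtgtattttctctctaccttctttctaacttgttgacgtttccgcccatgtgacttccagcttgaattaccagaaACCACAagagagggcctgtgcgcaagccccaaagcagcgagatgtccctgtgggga
Rabl2: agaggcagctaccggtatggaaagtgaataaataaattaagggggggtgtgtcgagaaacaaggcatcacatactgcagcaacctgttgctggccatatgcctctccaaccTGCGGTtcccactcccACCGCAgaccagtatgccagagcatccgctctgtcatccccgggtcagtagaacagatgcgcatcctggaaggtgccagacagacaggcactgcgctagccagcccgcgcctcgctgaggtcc
Dus1l: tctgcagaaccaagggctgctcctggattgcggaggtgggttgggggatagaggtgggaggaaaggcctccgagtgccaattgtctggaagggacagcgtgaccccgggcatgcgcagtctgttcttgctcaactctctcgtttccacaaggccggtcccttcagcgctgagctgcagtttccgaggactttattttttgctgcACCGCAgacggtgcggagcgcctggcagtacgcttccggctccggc
Chd8: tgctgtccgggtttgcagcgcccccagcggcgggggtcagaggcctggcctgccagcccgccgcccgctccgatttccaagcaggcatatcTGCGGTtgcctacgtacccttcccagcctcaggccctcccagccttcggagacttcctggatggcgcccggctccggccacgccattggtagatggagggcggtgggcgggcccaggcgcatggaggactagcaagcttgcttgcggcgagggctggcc

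The match of Cpa3 began at position -73 from the gene start, and those of Fermt3 at -61 and -24. Batf had matches at -149 and -56, and Rabl2 at -139 and -123. Dus1l and Chd8 had 1 match each, at -46 and -159. Gp1ba had none of these letters in its window. Base composition ran from 43.3% G and C in the 300-base promoter of Cpa3 to 69.3% in that of Chd8.

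The lost gene-end sites tended to have lower RUNX1 ranks than the classes of site set beside them here. Their mean percentile rank over the 6 libraries without CM had a median of 40.7, with quartiles of 27.7 and 57.5. The 1913 gene-end sites called in all 8 libraries, called kept below, had a median of 57.8, and the 2019 sites lost by the same rule at over 1 kb from a gene boundary, called distal lost sites, had 60.6. Peaks were narrower as well, with a median merged width of 385 bp against 556 bp at kept gene-end sites. By library, the median rank of the lost sites was 48.3 and 43.6 in Control -Dox, 49.0 and 38.2 with doxycycline, and 37.5 and 41.1 in CBFB-MYH11 -Dox. Control +Dox overlapped both of the others, while both CBFB-MYH11 -Dox medians lay below both Control -Dox medians. A single site varied more, with a median SD of 12.3 rank points over the 6 libraries.

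Gene ends lost a smaller share of their RUNX1 sites than the rest of the genome. Of the 2604 gene-end sites called in all 6 libraries, the 365 lost ones were 14%, against 34.1% of 5927 distal sites. Among gene-end sites, 191 of 1812 that overlapped a RefSeq promoter (250 bases before to 50 bases after a gene start) were lost, or 10.5% (95% Wilson interval 9.21 to 12.04). Of 792 on no such promoter, 174 were lost, or 22.0% (19.2 to 24.98). Sites near only the end of a gene had the highest share, 62 of 203 or 30.5% (24.6 to 37.2), and sites near a start had 241 of 1991 or 12.1%. The strand of the gene was not in the promoter table for the other 410 sites, of which 62 were lost. These intervals cover counting error only.

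Rank and position were both tied to the share lost, as the plot of loss by rank shows. Among sites of rank 60 to 80, 3.76% of 479 promoter sites were lost, 19.8% of 217 other gene-end sites and 37.7% of 1773 distal sites. Above rank 80 the shares were 2.07%, 9.03% and 17.4%. At ranks up to 20, promoter sites and other gene-end sites had similar shares of 29.3% and 26.2%, and the distal share was 40.8%. The fall with rank was not steady in all classes, since distal sites had 47.1% and 47.7% at ranks 20 to 40 and 40 to 60, and other gene-end sites 32.0% and 25.3%. The rule used these same RUNX1 lists, so the shares describe the choice of sites.

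**Figure D1:**
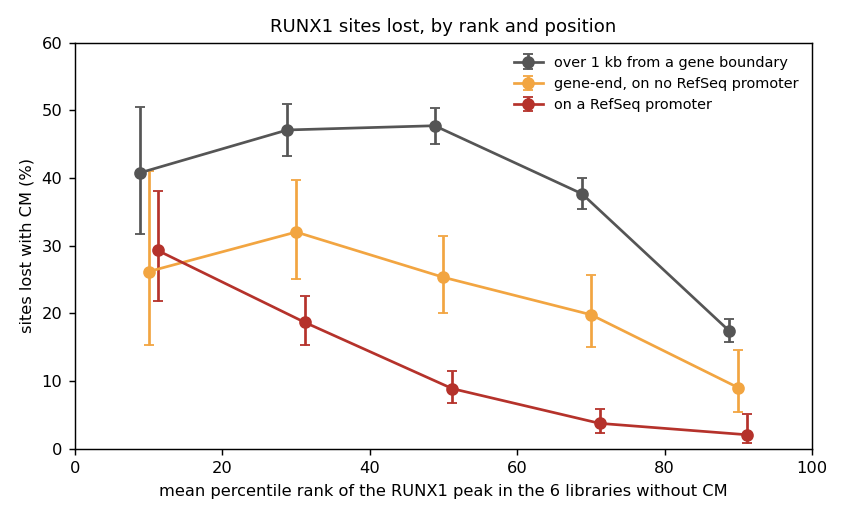
Share of RUNX1 sites lost with CM (vertical axis, percent, with 95% Wilson intervals) against the mean percentile rank of the peak in the 6 libraries without CM (horizontal axis, bins of 20 points). Promoter sites go from 29.3% in the lowest bin to 2.07% in the highest, other gene-end sites from 26.2% through 32.0% to 9.03%, and distal sites from 40.8% through 47.7% in the middle bin to 17.4%.

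The edges of the rule were well populated. In distance, 37 lost sites lay 801 to 1000 bp from the nearest gene boundary, and 38 lost sites at 1001 to 1200 bp fell just outside. A further 216 of the 365 covered a boundary. In calls, 326 gene-end sites were called in all 6 libraries and in 1 CBFB-MYH11 +Dox library, 106 of them in replicate 1 and 220 in replicate 2. Another 220 were called in 5 of the 6 and in neither. The 326 sites had a median mean rank of 42.7, and their median rank in the 1 CBFB-MYH11 +Dox library that called them was 16.5 in replicate 1 and 21.4 in replicate 2.

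The lost sites with the highest ranks lay mostly off RefSeq promoters. The first was inside the span of Lyl1, 867 bp from its end and 863 bp from the end of Nfix. Lyl1 encodes a basic helix-loop-helix factor of blood progenitors, and Nfix a nuclear factor I protein. Its RUNX1 ranks were 96.4 and 94.2 in Control -Dox, 95.4 and 93.1 in Control +Dox, then 95.7 and 94.1 in CBFB-MYH11 -Dox. No CHD7 library called a peak there, and Lyl1 has another gene-end RUNX1 site that was kept.

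Cpa3 and Gp1ba followed, both with the peak on the gene start. At Cpa3 the ranks were 90.2 and 94.3 in Control -Dox, 90.6 and 94.9 in Control +Dox, then 93.9 and 95.3 in CBFB-MYH11 -Dox. Gp1ba had 94.9 and 96.1, then 94.1 and 94.4, then 88.2 and 90.3 in the same order. The next sites by rank were at Tax1bp1 (an autophagy receptor), Car3 (carbonic anhydrase 3), Vps37b (an ESCRT-I subunit), Ell2 (a transcription elongation factor), Plscr2 (a phospholipid scramblase) and Cpt2 (a mitochondrial enzyme of fatty acid oxidation), with mean ranks of 93.0 down to 85.9. Of the 18 lost sites with a rank above 80, 4 lay on a RefSeq promoter, or 22.2%. Of the 45 with a rank up to 20, 34 did, or 75.6%.

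Megakaryocyte and platelet genes had 4 lost genes of the 14 in their list with a gene-end site called in all 6 libraries, or 28.6%, against 14% of all 2988 such genes. Gp1ba and Gp9 encode chains of the same platelet adhesion complex, Fermt3 encodes kindlin-3, and Selp encodes P-selectin, an adhesion molecule of platelet granules. At Gp9 the ranks were 78.5 and 82.2 in Control -Dox, 68.1 and 74.3 in Control +Dox, then 66.9 and 50.6 in CBFB-MYH11 -Dox. Fermt3 had 39.3 and 49.1, 29.7 and 54.9, and 45.1 and 31.3. Selp was low throughout, at 22.2 and 38.8, 33.3 and 21.7, and 7.54 and 41.3. Another 8 genes of the list had a kept gene-end site, so the list was split.

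The list of myeloid and mast cell products had 2 lost genes of 6 (33.3%, against 14% of all genes), Cpa3 and Itgb2. Itgb2 encodes the common beta chain of the leukocyte integrins, and its site, 691 bp from a gene boundary, had a mean rank of 37.7. Lyl1 was the lost gene among 12 haematopoietic transcription factors (8.33%), and 10 of the 12 had a kept site. Among 10 cytokine and growth factor signalling genes with a gene-end site none was lost and 8 had a kept site. At Runx1 itself the single gene-end site called in all 6 libraries was kept. Chd7, Cbfb and Myh11 had no such site.

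Genes of RNA processing and chromatin held other lost sites, most of them on promoters. Of 23 splicing genes with a gene-end site, 5 were lost, or 21.7%, against 14% of all genes with such a site. They were Srsf3, an SR splicing factor, Rbm25 and Rbm39, RNA-binding splicing factors, Hnrnpa2b1, a heterogeneous nuclear ribonucleoprotein, and Son, a nuclear speckle protein. Their mean ranks ran from 59.6 at Srsf3 to 20.8 at Son. Hnrnpa2b1 and Rbm39 also had a kept site. Of 20 chromatin genes, 3 were lost, or 15%, close to the 14% of all genes. Besides Chd8 these were Smarcd1 and Pbrm1, which encode subunits of the SWI/SNF remodellers, at mean ranks of 26.5 and 22.3. The lost site at Pbrm1 also covered the start of Gnl3, which encodes a nucleolar GTPase.

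At Chd8 the ranks were 85.9 and 59.7 in Control -Dox, 88.4 and 64.2 in Control +Dox, then 50.3 and 40.02 in CBFB-MYH11 -Dox. Both CBFB-MYH11 -Dox libraries lay below the 4 control libraries. Another 4 lists of named symbols had 1 lost gene each: cell cycle (Mcm5, a replicative helicase subunit, 1 of 14), apoptosis (Birc2, an inhibitor of apoptosis, 1 of 10), immediate-early genes (Ier2, 1 of 8) and vesicle traffic (Snx5, a sorting nexin, 1 of 19). Mean ranks at these 4 were 33.2, 52.3, 37.3 and 25. The shares of these 4 lists ran from 5.26% to 12.5%, against 14% of all genes.

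Housekeeping and other large families had shares of 14.8% to 27.8%, beside the 14% of all genes. Mitochondrial ribosomal proteins had 5 lost genes of 18 (27.8%), led by Mrpl1, Mrps7 and Mrpl11, and cytosolic ribosomal proteins had 4 of 27 (14.8%), led by Rpl36, Rps9 and Rps15a. Respiratory chain subunits had 3 of 20 (Ndufb9, Atp5g2 and Ndufab1) and proteasome subunits 2 of 11 (Psmd7 and Psmb4). Zinc finger genes of the Zfp and Zkscan families had 11 of 64 (17.2%), led by Zfp385a, Zfp933 and Zfp148. Translation factors and tRNA synthetases had 7 of 32, but 4 of these 7 symbols are Eef1akmt genes or a readthrough of one, which encode methyltransferases of elongation factor 1A and are not themselves translation factors. Eif3l, which encodes a translation initiation factor subunit, had the highest rank of the list, 47.5.

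Lower shares were found for ubiquitin ligases and proteases, with 4 of 65 (6.15%, led by Trim80, Fbxo40 and Ubr1) and for DUSP phosphatases, with 0 of 3. Solute carriers had 5 of 45 (Slc22a8, Slc1a1 and Slc26a8 ranked highest) and Tmem genes 6 of 41 (Tmem177, Tmem62 and Tmem140). In all, 418 genes had a lost site, 31 of them beside a kept one, and 54 of the 365 sites were near the boundaries of at least 2 genes. The shares of short lists such as these move by several points with 1 gene.

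**Figure D2:**
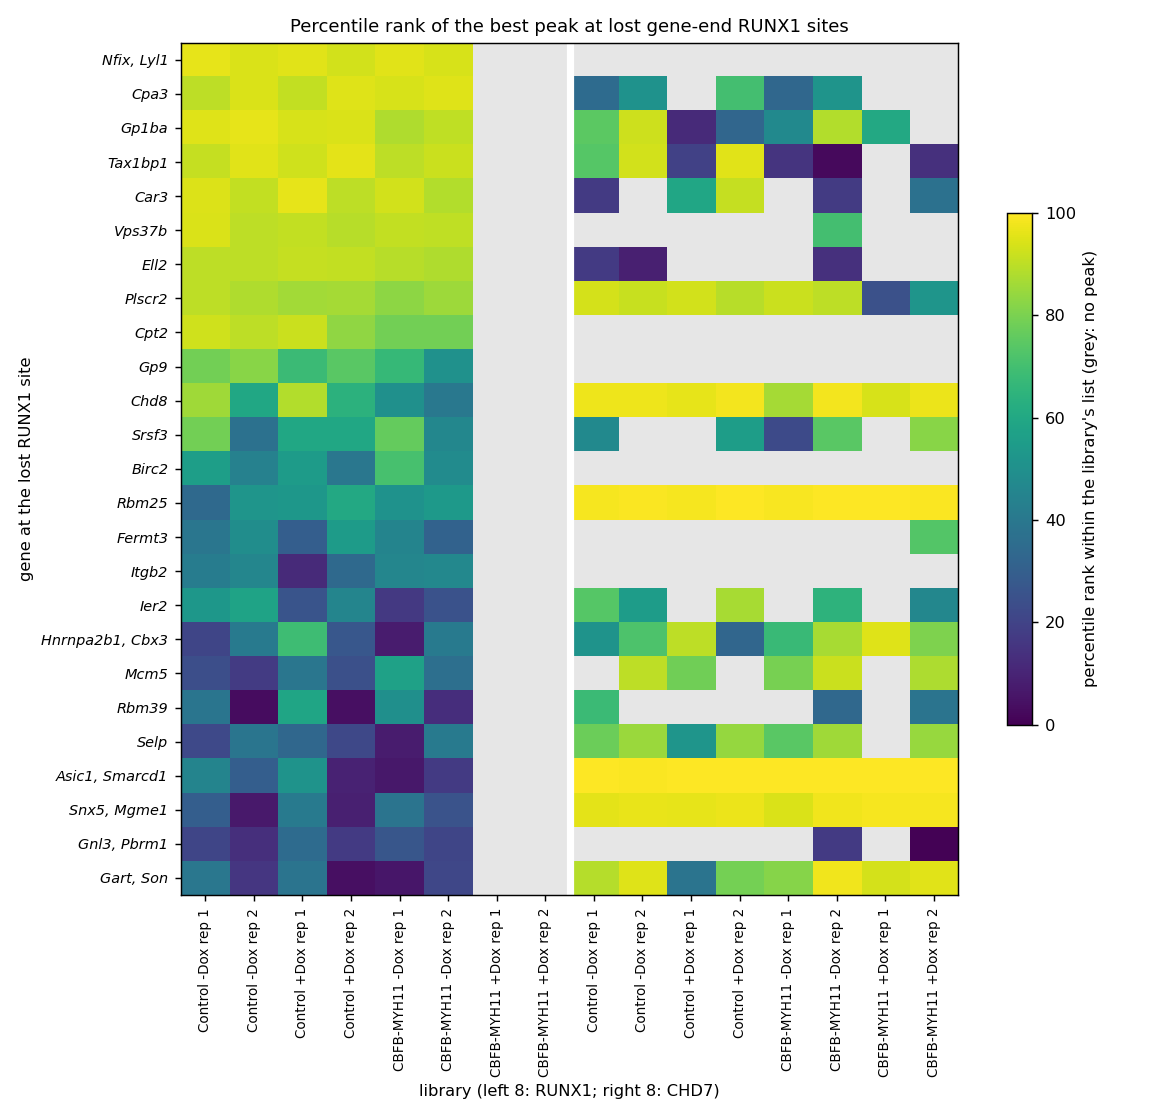
Percentile rank (colour, 0 to 100, grey where no peak was called) of the best peak in each of 8 RUNX1 and 8 CHD7 libraries (columns) at the 9 lost sites of highest mean RUNX1 rank and at those of the listed genes (rows, by mean rank). The 2 CBFB-MYH11 +Dox RUNX1 columns are grey by the rule. In the CHD7 columns Plscr2, Chd8, Rbm25, Hnrnpa2b1, Smarcd1, Snx5 and Son are called in all 8 libraries. The site of Nfix and Lyl1 and those of Cpt2, Gp9, Itgb2 and Birc2 are called in none.

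CHD7 was measured in libraries that took no part in choosing the sites. A CHD7 peak overlapped 46.0% and 60% of the 365 lost sites in Control -Dox, 43.0% and 52.1% in Control +Dox, then 46.0% and 64.9% in CBFB-MYH11 -Dox, and 40.5% and 52.3% in CBFB-MYH11 +Dox. The groups overlapped, since the second CBFB-MYH11 +Dox library was above 4 of the 6 others. Replicate 2 was above replicate 1 in every condition, however, and the SDs and the test that follow include that shift. Among replicate 1 libraries CBFB-MYH11 +Dox was the lowest, and among replicate 2 libraries it was above Control +Dox alone. The cause of the shift was not tested. The mean was 46.4% ± 8.33 (SD, n = 2) with CM and 52.0% ± 8.76 (SD, n = 6) without it, a difference of -5.57 points (two-sided exact permutation test over the 28 choices of 2 libraries, p = 0.536; 0.714 after Benjamini-Hochberg adjustment over 4 tests). With every CHD7 list limited to its 16323 highest peaks, the difference was -11.0 points and reached the smallest p the design allows (exact permutation p = 0.0357, not adjusted). Without CBFB-MYH11 +Dox replicate 1 it was 0.32 points, and it was -11.7 points at the 101 sites from equal RUNX1 lists.

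The doxycycline change of CHD7 at these sites was -9.04 points in CBFB-MYH11 cells and -5.48 points in control cells. The difference of -3.56 points had an exact permutation p of 0.833, also after adjustment. The smallest p this design can give is 0.0556, so the test could not pass 0.05 whatever the values. The difference was -14.7 points with RUNX1 scores at or above the pooled median and -9.41 with equal RUNX1 list lengths, and it took the opposite sign in 4 of the 8 cases that left out 1 CHD7 library.

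**Figure D3:**
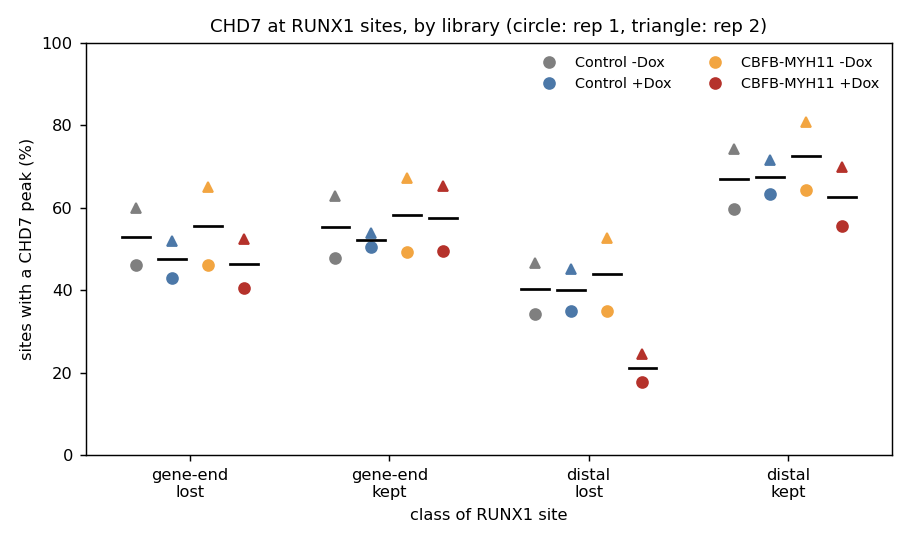
Share of RUNX1 sites with a CHD7 peak (vertical axis, percent) in each CHD7 library (circles replicate 1, triangles replicate 2, bars the mean of 2) for 4 classes of site (horizontal axis). At gene-end lost sites CBFB-MYH11 +Dox replicate 1, 40.5%, lies below all 6 others, and replicate 2, 52.3%, lies among them. At distal lost sites both CBFB-MYH11 +Dox libraries, 17.7% and 24.5%, lie below all 6.

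Comparing classes of site within each library makes the values less exposed to the length of its CHD7 list. The log2 odds ratio of a CHD7 peak at lost against kept gene-end sites was -0.11 and -0.17 in Control -Dox, -0.44 and -0.11 in Control +Dox, then -0.19 and -0.14 in CBFB-MYH11 -Dox. It was -0.53 and -0.78 in CBFB-MYH11 +Dox, below all 6 others. The means were -0.65 ± 0.18 (SD, n = 2) and -0.19 ± 0.12 (SD, n = 6), a difference of -0.46 with the smallest p that 28 choices allow (exact permutation p = 0.0357; 0.0714 after adjustment over 4 tests, which does not pass 0.05). At kept gene-end sites the mean share with CHD7 was 57.4% with CM and 55.3% without it. Restricting both classes to RUNX1 ranks of 20 to 60, an alternative chosen after seeing the data, gave -0.42 (exact permutation p = 0.0714), no longer the smallest possible, and equal RUNX1 list lengths gave -0.73. Equal CHD7 list lengths gave a smaller difference of -0.34 (exact permutation p = 0.0357, not adjusted).

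Against distal lost sites the odds ratio went the other way. The log2 odds ratio of a CHD7 peak at gene-end against distal lost sites was 0.72 and 0.77 in Control -Dox, 0.49 and 0.39 in Control +Dox, then 0.66 and 0.73 in CBFB-MYH11 -Dox. It was 1.66 and 1.76 in CBFB-MYH11 +Dox, above all 6 others. The difference of means was 1.08 (1.71 ± 0.07, SD, n = 2, against 0.63 ± 0.15, SD, n = 6; exact permutation p = 0.0357, the smallest possible; 0.0714 after adjustment). The share of distal lost sites with CHD7 was 21.1% ± 4.76 (SD, n = 2) with CM and 41.5% ± 7.80 (SD, n = 6) without it, while the gene-end values above differed by -5.57 points.

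**Figure D4:**
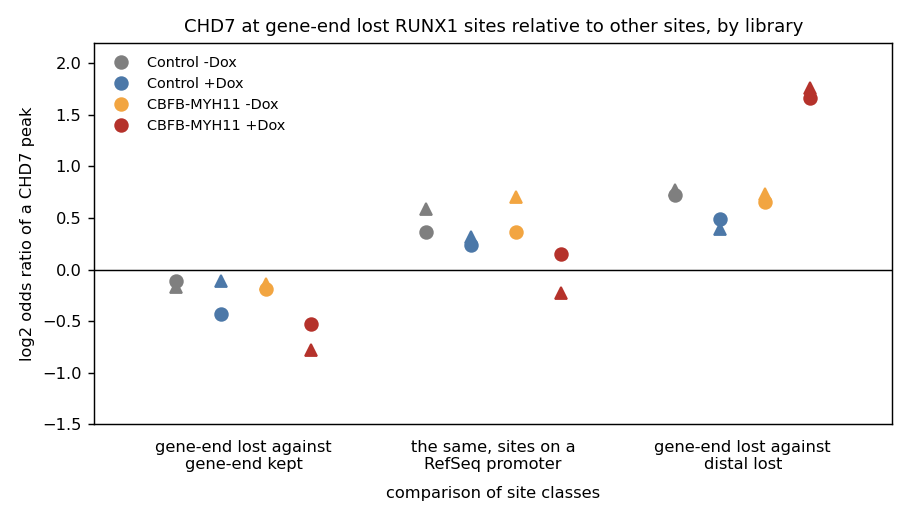
Log2 odds ratio of a CHD7 peak (vertical axis) in each CHD7 library (circles replicate 1, triangles replicate 2) for gene-end lost against gene-end kept sites, the same on RefSeq promoters only, and gene-end lost against distal lost sites. The CBFB-MYH11 +Dox libraries lie lowest in the first set, at -0.53 and -0.78, and highest in the third, at 1.66 and 1.76.

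Promoter and other lost sites differed in how often CHD7 was present. On RefSeq promoters the share was 61.7% ± 9.48 (SD, n = 6) without CM and 56.5% ± 6.66 (SD, n = 2) with it. Off promoters it was 41.4% ± 8.34 (SD, n = 6) and 35.3% ± 10.2 (SD, n = 2). Of these 174 sites, 62 were near a gene that is not in the promoter table, so some may lie on a promoter that was not listed. Every library had a higher share on promoters. For promoter sites alone, also compared after seeing the data, the log2 odds ratio of lost against kept sites was 0.37 and 0.59 in Control -Dox, 0.24 and 0.32 in Control +Dox, then 0.37 and 0.71 in CBFB-MYH11 -Dox, and 0.15 and -0.23 in CBFB-MYH11 +Dox. The mean was thus above 0 without CM (0.43), and the difference between groups was -0.47 (exact permutation p = 0.0357, the smallest possible, not adjusted).

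CHD7 was called in all 8 libraries at 85 of the 365 lost sites, or 23.3%, against 23.8% of all 8531 sites, and in no library at 65, or 17.8%, against 15% of all 8531. By RUNX1 rank, the share called in all 8 was 33.3% of 45 sites of rank up to 20, 27.1%, 21.3% and 16.4% in the next bins, and 1 of 18 sites above rank 80. At kept gene-end sites it was 38.0%, 26.8%, 20.4%, 26.3% and 35.6% in the same bins. Lost and kept sites thus had similar shares between ranks 20 and 60, and the lost ones had the lower share above 60; the difference was not tested. The share of lost sites on promoters was smaller in the same bins, as given above for the lowest and the highest.

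By RUNX1 rank, the lost sites with CHD7 in all 8 libraries were led by Plscr2, 4930522H14Rik, Dus1l, H3c6 (a histone H3 gene), Brf2 (an RNA polymerase III initiation factor), Chd8, Ilk with Rrp8 (integrin-linked kinase and a nucleolar methyltransferase), Zfp933, H2-T24 (a class I histocompatibility gene) and Chpf2 (a chondroitin polymerase). At Dus1l the CHD7 peak was among the strongest of each list, with ranks of 99.6 and 99.6 in Control -Dox, 99.6 and 99.8 in Control +Dox, then 99.7 and 99.8 in CBFB-MYH11 -Dox, and 99.8 and 99.6 in CBFB-MYH11 +Dox. Chd8 had CHD7 ranks of 97.3 and 97.4, 96.5 and 98.2, 86.4 and 98.1, and 94.1 and 96.9 in the same order. At both genes CHD7 was thus called at high rank in the libraries whose RUNX1 counterparts had no peak. Plscr2 had ranks of 93.6 and 91.4, 93.2 and 89.4, and 91.8 and 90.1 without CM, and 24.7 and 52.2 in CBFB-MYH11 +Dox, lower than all 6 others.

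Few lost sites lost CHD7 as well. Of the 99 with CHD7 in all 6 libraries without CM, 3 had it in neither CBFB-MYH11 +Dox library, 11 in 1 and 85 in both. The 3 became 7 without the first and 10 without the second CBFB-MYH11 +Dox CHD7 library, and 5 without CBFB-MYH11 -Dox CHD7 replicate 1, Control +Dox RUNX1 replicate 1 or CBFB-MYH11 +Dox RUNX1 replicate 1. Over all RUNX1 sites called in all 6 RUNX1 and all 6 CHD7 libraries the share with CHD7 in neither was 6.69%, with 9 of 571 at kept gene-end sites and 67 of 305 at distal lost sites. The 3 sites were at Rmi2, which encodes a subunit of the BLM helicase complex, at Pigu, which encodes a subunit of the GPI transamidase, and at the start shared by Poglut2, a protein O-glucosyltransferase gene, and Bivm. Their CHD7 ranks without CM were 14.7 to 44.4 at Rmi2, 12.9 to 87.1 at Pigu and 30.3 to 90.5 at Poglut2 and Bivm.

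With CHD7 in at least 5 of the 6 libraries, 9 of 129 lost sites had it in neither CBFB-MYH11 +Dox library, and with at least 3 of the 6, 31 of 204 did, or 15.2%. The latter share was 6.87% of 1135 kept gene-end sites and 43.8% of 913 distal lost sites. Cpa3 was among the 9, with CHD7 ranks of 34.8 and 50.9 in Control -Dox, no peak and 70.2 in Control +Dox, then 33.3 and 51.8 in CBFB-MYH11 -Dox, and no peak in CBFB-MYH11 +Dox. The others were Entpd6, Styk1, Snx27, Il12rb2, and Nop14 with Grk4, together with the 3 above. These 5 sites were named after their values were seen. In the other direction, of 75 lost sites with CHD7 in none of the 6 libraries, 1 had it in both CBFB-MYH11 +Dox libraries and 9 in 1.

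Platelet genes differed among themselves in CHD7. Gp1ba had ranks of 74.8 and 92.4 in Control -Dox, 11.8 and 32.9 in Control +Dox, then 47.3 and 88.6 in CBFB-MYH11 -Dox, and 60.3 and no peak in CBFB-MYH11 +Dox. Selp was called in all 8 except CBFB-MYH11 +Dox replicate 1, at ranks of 52.3 to 85.9. Gp9 had no CHD7 peak in any library, and Fermt3 had 1, in CBFB-MYH11 +Dox replicate 2 at rank 73.3. Itgb2 and Birc2 had none.

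Polq, which encodes DNA polymerase theta, and Orai2, a calcium channel subunit, were the genes with 2 lost sites. The Polq sites had mean RUNX1 ranks of 40.2 and 10.4, and both were overlapped by CHD7 peaks in all 8 libraries, in 5 of them with the same rank at both sites. The Orai2 sites had mean ranks of 30.9 and 30.5, with CHD7 in 3 and 8 libraries. Neighbouring sites of this kind are not independent.

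The promoters under the lost sites held RUNX letters more often and SP and KLF letters less often than those under kept sites. Lost sites overlapped 231 RefSeq promoters of 209 genes, and 18 sites covered promoters of at least 2 genes. TGTGGT, on either strand in the 300 bases, was in 22.5% of these, 13.2% of the 1809 promoters under kept sites and 15.0% of all 21263. The second form, TGCGGT, was in 19.9%, 15.6% and 7.44%, and either form in 38.5%, 27.9% and 21.6%. The ETS letters CCGGAA were in 42.9%, 38.5% and 18.7%. Gene-end sites called in 1 CBFB-MYH11 +Dox library overlapped 255 promoters. Of these, 18.8% held TGTGGT, 32.5% either RUNX form and 62.7% the SP and KLF letters, each between the shares for lost and kept sites. The ETS letters were in 45.1% of them, above both.

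GGGCGG, the core bound by SP and KLF factors, was in 49.8% of promoters under lost sites, 78.3% of those under kept sites and 46.2% of all. The NF-Y box CCAAT was in 35.5%, 47.4% and 38.2%. The GATA letters AGATAA were in 5.19%, 4.53% and 9.65%, and the AP-1 letters TGANTCA in 4.76%, 3.76% and 6.99%. The other families differed by less than 3 points between lost and kept sites, with TGACGT (cyclic AMP element core) in 13.4% and 15.8%, ATGGCGG (YY1) in 11.7% and 12.1%, GCGCATG (part of the NRF1 site) in 8.66% and 6.85%, and CACGTG (E-box) in 13.0% and 11.2%. A match is a string of letters in a window and no measured site.

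Base composition moved with these shares. The median G and C content was 59.3% under lost sites, 63.7% under kept sites and 56.3% over all promoters. In promoters under 55% G and C, GGGCGG was in 30.8% of 78 under lost and 45.4% of 269 under kept sites. From 55% to 65% it was in 51.0% of 100 and 75.1% of 731, and at 65% or more in 75.5% of 53 and 92.1% of 809. For TGTGGT the shares were 26.9% and 17.8%, 23.0% and 14.6%, and 15.1% and 10.4% in the same bins. Both differences thus kept their direction in each of the 3 bins. No test was made, since promoters are not replicates and lost and kept sites also differ in RUNX1 rank.

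**Figure D5:**
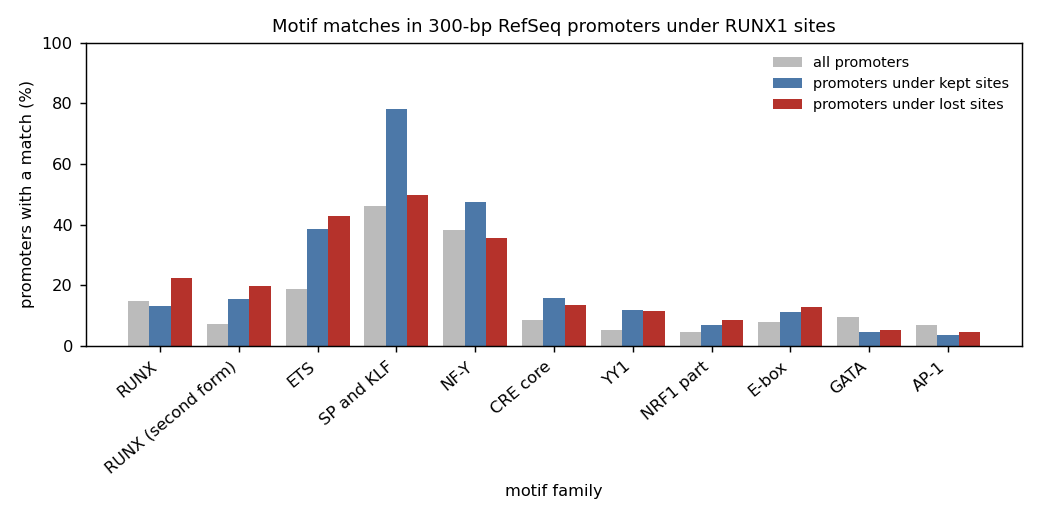
Share of 300-base RefSeq promoters with a match to each motif family on either strand (vertical axis, percent) for all 21263 promoters, 1809 under kept and 231 under lost gene-end RUNX1 sites. SP and KLF letters are in 78.3% under kept and 49.8% under lost sites, and RUNX letters of the first form in 13.2% and 22.5%.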

How the data were processed

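RUNX1 and CHD7 peak lists of 16 libraries were used, with 2 replicates for each of 4 conditions and each of 2 antibodies; the labels name 17 samples, and the IgG sample was not analysed here. Bowtie2 2.0.6, MACS2 2.0.10 and mm10 are named per the submitters' processing notes. Each library has its own list, so peaks were called per sample. The deposited column used gives −log10 p for a peak. Its lower limit matches the p threshold in the peak names, 1e-09 for 5 RUNX1 lists, 1e-07 for the other 3 and 0.01 for CHD7. Scores were turned into percentile ranks within a list (ties by their mean rank; the best peak where several overlapped a site) and used for nothing else but the alternatives. For read depth, the control library of the calls and read filters nothing is stated: not given in the sources used here. Nothing says that replicates were separate cultures, so p-values measure only how much these libraries vary, and that variation may be technical.

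Sites were merged at 1 bp overlap, and a library counted at a site when a peak overlapped by 1 bp. Gene boundaries came from RefSeq on GRCm38.p6 (21887 protein-coding genes), and strands and promoters from its promoter table (21263 promoters of 17492 genes). Exons, introns and untranslated regions were not used here. The odds ratios had 0.5 added to each count. The 4 tests on CHD7 were two-sided exact permutation tests over libraries, adjusted by Benjamini-Hochberg, with a threshold of 0.05, and the scripts were tested on simulated data. Python 3.11.15, NumPy 2.4.6, SciPy 1.17.1 and Matplotlib 3.10.9 were used. The genes named are the 10 lost sites of highest mean rank, sites whose CHD7 was called in all 6 non-CM libraries but in no CM library, the 10 highest with CHD7 in all 8, list genes (up to 6 for each of 10 lists of symbols, 3 for each of 11 symbol patterns), genes with 2 sites, and Runx1, Chd7, Cbfb and Myh11. Some items that this rule takes in are not reported here. Alternatives changed list length, score threshold, window, overlap and libraries. The sites, lists and tests were chosen with earlier results of these data known.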

Additional observations from a re-analysis of the deposited data

Results flagged for a closer look

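In Control +Dox replicate 1 the log2 odds ratio of a CHD7 peak at lost against kept gene-end sites was -0.44, apart from the other 5 libraries without CM. Its gap to the nearest of them was 0.753 of the range of the 6, where Dixon's test at the 95% level allows less. Chance alone flags about 1 in 20 groups. It is also the CHD7 list with the fewest peaks, 16323; the part of list length in this value was not tested.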

How the results depend on the processing

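For CHD7 at lost sites (-5.57 points), lists of equal CHD7 length gave -11.0 points (exact permutation p = 0.0357), and leaving out 1 library gave -11.5 to 0.32, the last without CBFB-MYH11 +Dox replicate 1. Equal RUNX1 list lengths gave -11.7 and RUNX1 scores at or above the pooled median -12.5. Against kept gene-end sites (-0.46) the leave-one-out values ran from -0.58 to -0.33 and sites of RUNX1 rank 20 to 60 gave -0.42, while equal RUNX1 list lengths gave -0.73 and equal CHD7 list lengths -0.34. Against distal lost sites (1.08) the leave-one-out values ran from 0.81 to 1.13. Sites of RUNX1 rank 20 to 60 gave 0.78, below that range, and equal CHD7 list lengths gave 1.18. With 1 CBFB-MYH11 +Dox CHD7 library left, the lone library is set against 6 and the smallest exact permutation p is 0.143. The doxycycline change by construct (-3.56) was -9.41 with equal RUNX1 list lengths and -14.7 with RUNX1 scores at or above the median. Leaving out 1 library gave -13.0 to 5.89 points, with 3.42, 0.96, 5.89 and 2.33 without Control -Dox replicate 1, Control +Dox replicate 2, CBFB-MYH11 -Dox replicate 2 and CBFB-MYH11 +Dox replicate 1. Over all alternatives the permutation p ran from 0.0357 to 0.857 for CHD7 at lost sites, from 0.0357 to 0.143 for both odds ratios and from 0.444 to 0.944 for the construct difference. The cause of these shifts was not tested.

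The number of lost sites depended on the RUNX1 lists. It was 101 with equal list lengths (8140 peaks), 167 with scores at or above the pooled median, and 379 to 586 without 1 library, the highest without CBFB-MYH11 +Dox RUNX1 replicate 2. The share lost was 9.63% and 25.2% in the first 2 cases, 12.1% for a window of 500 bp, 16.1% for 2 kb, and 14.0% to 22.5% without 1 library. With the threshold of 1e-09 in every list 362 sites were lost. The 3 sites that lost CHD7 became 1 with CHD7 scores at or above the median, 1 with equal RUNX1 list lengths, 5 with RUNX1 scores at or above the median, 6 for 2 kb, and 3 to 10 without 1 library. Sites whose loss rests on list length cannot be told apart from others here, and depth is unknown.

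Libraries shared only a replicate number, and nothing in the labels pairs them. CHD7 deviations of same-numbered libraries correlated at 0.0119 to 0.0832 over 8531 sites. That correlation cannot show a shift common to all sites, so it does not decide whether the numbers pair libraries. Replicate 2 had CHD7 at more of the lost sites than replicate 1 in every condition. With the replicate number as a block, the differences of -0.46 and 1.08 had an exact permutation p of 0.0625, the smallest possible, and that of -5.57 had 0.25. Within replicates 1 and 2 they were -0.28 and -0.63 against kept sites, 1.04 and 1.13 against distal lost sites, and -4.47 and -6.67 points. The construct difference of -3.56 had a blocked permutation p of 0.75.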

Other observations

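A few gene families that recur among the lost sites were counted after their values were seen, against 14% of all genes with a gene-end site. Of 17 replication-dependent histone genes with a gene-end RUNX1 site called in all 6 libraries, 6 had a lost site and 6 a kept one. The 6 lost genes share 4 sites: H3c6 (mean RUNX1 rank 68.8), H2bc9 with H3c7 (30.5), H4c14 (13.2) and H2bc3 with H3c3 (12.8). CHD7 was called in all 8 libraries at 3 of these and in 4 libraries at H4c14. Genes of this family are near-identical copies, and how reads were placed among them is not given in the sources used here.

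Of 21 centrosome and cilium genes of the Cep, Bbs and Ift families, 7 had a lost site and 15 a kept one. The highest rank was at Bbs12 (59.5, CHD7 in all 8 libraries), which encodes a chaperonin-like protein of the BBSome pathway, and the others were Bbs9, Cep19, Ift81, Cep350, Ift172 and Cep43, at ranks of 44.7 to 23.3 and with CHD7 in 1 to 3 libraries. Of 7 Pig genes, which encode enzymes of GPI anchor synthesis, 3 had a lost site: Pigv (48.2), Pigt (37.5) and Pigu (22.7). By chromosome, the share of gene-end sites lost ran from 5.84% of 137 on chromosome 10 to 19.2% of 78 on chromosome 13.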
